A study of Rattus norvegicus with 82 samples.

Results

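Penk, the gene of proenkephalin, was followed through 82 RNA-seq libraries of rat ventricular cardiomyocytes. It is 1 of 17337 genes in the deposited table, where it has a single row (NCBI gene 29237). The gene was chosen by its response to pulmonary artery banding (PAB) in the right ventricle (RV) and by its difference between RV and left ventricle (LV), both measured in these same libraries. Those values are therefore given as a description with no p-value. Proenkephalin is the precursor of Met-enkephalin and Leu-enkephalin, small peptides that are cut out of the protein at pairs of basic residues and secreted. The enkephalins act mainly on delta and mu opioid receptors, which couple to inhibitory G proteins. In the heart, opioid peptides are known as modulators of the force of contraction, of vagal and sympathetic input and of the tolerance to ischaemia, and cardiac muscle has long been known to hold Penk mRNA.

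The cardiomyocytes came from 41 F1 rats with a Wistar Kyoto mother and a Lewis father, and each animal gave 1 RV and 1 LV library. Animals had a sham operation, PAB, which loads the RV, or banding of the aorta (AOB), which loads the LV. In the hypertrophy stage, sham (Sham-H, 7 animals), PAB (PAB-H, 6) and AOB (AOB-H, 6) rats were 11 weeks old, 7 weeks after surgery. In the failure stage, sham (Sham-F, 9) and AOB (AOB-F, 7) rats were 31 weeks old, 26 weeks after surgery, whereas PAB rats (PAB-F, 6) were 28 weeks old, 22 weeks after surgery, so that PAB-F was compared with older controls. These are the ages given for each sample; the labels' protocol text gives an age at surgery that does not match them, so the ages are uncertain. Both sexes were present in all 12 groups. The cells were released by collagenase perfusion and enriched by centrifugation, with no sorting step. Library totals lay between 6675287 and 19665439 counted fragments (median 13074486), and 130 to 5702 of them fell on Penk, which gives a counting error of 8.77% at the lowest count and 1.32% at the highest. The labels name separate animals, so the spread between libraries is biological and technical spread together.

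All 9 markers of ventricular cardiomyocytes were abundant in every group, with Myh6 at a mean of 6730 FPKM (fragments per kilobase of transcript, scaled to depth). Markers of other cells were also present. Pecam1 and Cdh5 of the endothelium averaged 64 and 54.5 FPKM, Dcn of fibroblasts 61.3 FPKM, and none of the 7 endothelial, 10 fibroblast, 7 mural or 8 macrophage markers was at 0 in every library, although Col1a2 of the fibroblast list was at 0 in 71 of 82. Of the neuronal and chromaffin list, Th was at 0 in 73 libraries, Chga in 39 and Slc18a1 in 37. Ddc averaged 489 counts, Dbh 44.8 and Prph 43.4, and each of these was counted in every library. In these bulk samples, fewer cells of a type and less RNA per cell cannot be told apart.

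In sham animals Penk differed sharply between the ventricles. Values are normalized counts, the raw counts scaled to a common library size by TMM (trimmed mean of M values). In RV Sham-H the lowest library had 186, the median 237 and the highest 294. In LV Sham-H the same 3 values were 867, 1845 and 3299. In RV Sham-F they were 161, 310 and 388, and in LV Sham-F 1894, 2122 and 3691. The 16 RV sham libraries ended at 388 and the 41 LV libraries began at 867, so these ranges did not overlap. Per length of transcript, Penk averaged 11.9 ± 1.80 FPKM (SD, n = 7) in RV Sham-H and 101 ± 41.7 FPKM (n = 7) in LV Sham-H. That placed it above 70.2% of the genes in RV Sham-H and above 96.0% in LV Sham-H. In RV Sham-F it averaged 14.4 ± 4.10 FPKM and in LV Sham-F 117 ± 28.5 FPKM (n = 9 each).

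**Figure D1:**
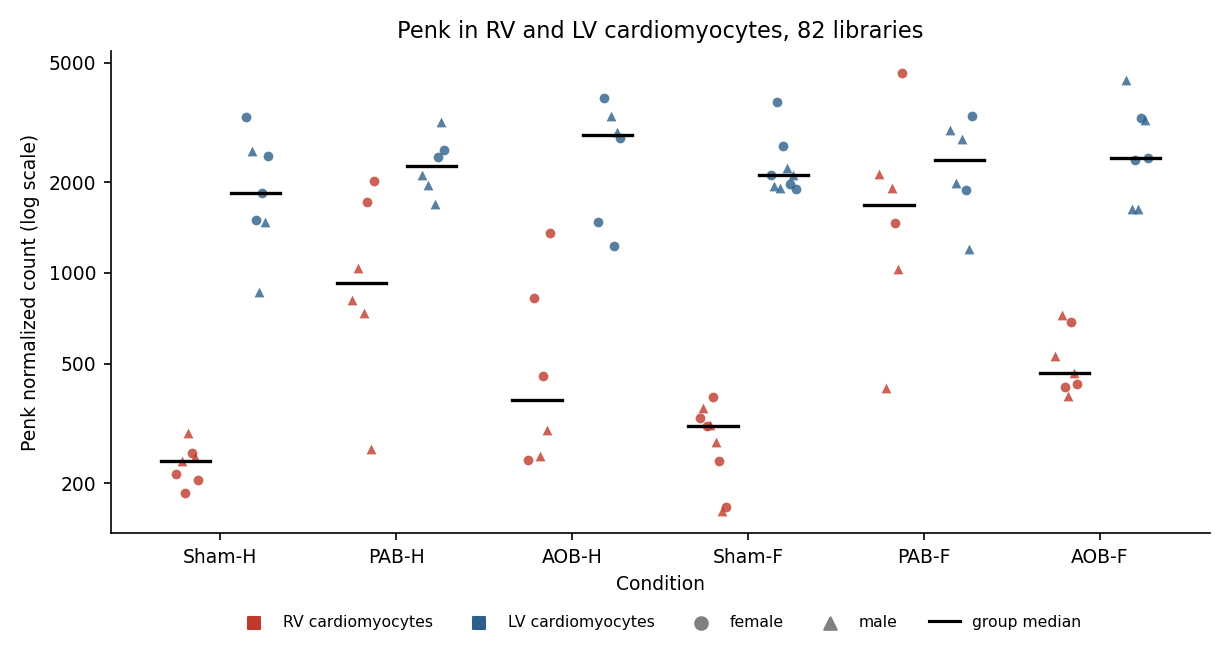
Penk normalized count (log axis) of every library in the 6 conditions, with RV in red, LV in blue, females as circles, males as triangles and the group median as a bar. RV sham libraries lie between 161 and 388, LV libraries of all conditions between 867 and 4389, and RV PAB libraries spread from 261 to 4630.

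In the pressure-loaded RV, Penk was higher and far more variable between animals than in RV sham. In RV PAB-H the lowest library had 261, the median 927 and the highest 2015, and 5 of 6 libraries lay above every RV Sham-H library. In RV PAB-F the lowest had 416, the median 1686 and the highest 4630, and 6 of 6 lay above every RV Sham-F library. The mean FPKM was 55.5 ± 33.7 in RV PAB-H and 97.4 ± 73.7 in RV PAB-F (SD, n = 6 each). The coefficient of variation of the normalized count was 59.6% in RV PAB-H and 75.6% in RV PAB-F beside 15.2% and 28.2% in the RV sham groups. It was 77.7% in RV AOB-H and 25.8% in RV AOB-F, so a wide spread was not particular to the PAB groups. The log2 fold change over sham was 2.23 ± 0.35 (SE) in RV PAB-H, a 4.69-fold higher level, and 2.78 ± 0.32 in RV PAB-F, a 6.85-fold higher level. These contrasts were among those that chose the gene and carry no p-value. Over all 11954 genes tested, 4.50% passed an adjusted p of 0.05 in RV PAB-H and 11.1% in RV PAB-F (edgeR quasi-likelihood test, Benjamini-Hochberg adjustment).

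Within the PAB groups, the animals were also compared by their natriuretic peptide genes and by other load-responsive genes. The lowest RV PAB-F library, replicate 3, also had the lowest Nppb count of its group (3822), and Nppb encodes the natriuretic peptide BNP. The highest Nppb count (17150) and the highest Nppa count (100900) were both in replicate 1, where Penk was 1033. The highest Penk count (4630) was in replicate 5, with Nppb at 7500. In RV PAB-H, the lowest library for Penk (replicate 1, 261) was again the lowest for Nppb (2143). It was also the lowest there for Ankrd23 (449), Tceal7 (21.6), Acta1 (6156) and Ctgf (2558). RV PAB-F replicate 3 was the lowest of its group for Tceal7 (44.3), Acta1 (6089) and Ctgf (1939), but not for Ankrd23 (671). In neither group was the lowest library for Penk the lowest for Nppa.

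Markers of other cells moved with the same groups. In RV PAB-H, 9 of 9 tested fibroblast markers rose (median log2 fold change 1.44), and in RV PAB-F 6 of 9 rose (median 1.43). The share called over all genes tested, to be set beside every marker count here, was 4.50% in RV PAB-H and 11.1% in RV PAB-F. The summed fibroblast markers ranged from 237 to 455 CPM (counts scaled to a common library size) in RV Sham-H, from 359 to 2540 in RV PAB-H, from 152 to 485 in RV Sham-F and from 249 to 1720 in RV PAB-F. Of 7 endothelial markers, 1 rose in RV PAB-H and 2 in RV PAB-F, with summed ranges of 906 to 1870 CPM and 915 to 1720 CPM beside 766 to 1080 CPM and 652 to 1040 CPM in the shams. Within the PAB groups the order was different: the RV PAB-H library with the most fibroblast signal (replicate 2, 2540 CPM) had 738 Penk counts, and the RV PAB-F library with the most Penk (replicate 5) had 389 CPM of fibroblast markers beside 1720 CPM in replicate 1. Over the 41 RV libraries with group means removed, Penk and the mean fibroblast marker level had r = -0.42 (permutation p = 0.0623, adjusted p = 0.239) and rho = -0.46 (p = 0.00852, adjusted p = 0.12), and r was -0.39 without the 2 libraries farthest from the median. Sex was not removed in this relation. By edgeR, 5 of 9 fibroblast markers were lower in females and 0 higher, beside 17.2% of all genes called, while the Penk estimate was higher in females (log2 0.32). The part of sex in this relation was not tested. Of 8 macrophage markers 0 passed by edgeR in RV PAB-H and 4 rose in RV PAB-F, and of 9 ventricular cardiomyocyte markers 0 and 1 rose. Of 7 mural markers 1 and 2 rose. The part of other cells in the PAB difference was not tested further.

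Each animal gave both ventricles, so the ratio was also taken within animals. In Sham-H, LV over RV was 2.95 in the lowest animal, 8.06 in the median and 15.3 in the highest. In Sham-F it was 5.47, 8.15 and 13.2. In PAB-H it was 1.27, 2.09 and 12.2, and in PAB-F 0.715, 1.34 and 4.77. RV was below LV in all 16 sham animals, in 6 of 6 PAB-H animals and in 5 of 6 PAB-F animals. The exception in PAB-F was the female with the highest RV value, at 4630 in RV and 3312 in LV.

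As log2 of RV over LV, the mean within animals was -3.00 ± 0.78 (SD, n = 7) in Sham-H, -1.32 ± 1.19 (n = 6) in PAB-H, -3.05 ± 0.46 (n = 9) in Sham-F and -0.56 ± 0.91 (n = 6) in PAB-F. The unpaired fit over all libraries gave -3.10 ± 0.35 (SE), -1.08 ± 0.35, -3.02 ± 0.31 and -0.29 ± 0.35. With AOB, the within-animal mean was -2.40 ± 1.05 (SD, n = 6) in AOB-H and -2.33 ± 0.61 (n = 7) in AOB-F, with RV below LV in all 13 animals. The ventricles differed in much else: 21% of all genes tested differed between RV and LV in Sham-H and 74.3% in Sham-F. Endothelial markers were among them, with 5 of 7 lower in RV in Sham-H (median log2 -0.96) and 6 of 7 lower and 1 higher in Sham-F (median -1.62). Of 9 fibroblast markers 1 was lower in RV in Sham-H and 6 in Sham-F, of 7 mural markers 3 and 5, and of 8 macrophage markers 0 and 4. Of 9 ventricular cardiomyocyte markers 0 passed in Sham-H, and in Sham-F 4 were higher and 2 lower in RV. The part of cell content in the difference of Penk was not tested. Within RV and within LV, with group means removed, Penk and the endothelial marker level had r = -0.12 (permutation p = 0.59, adjusted p = 0.678) and r = -0.19 (p = 0.341, adjusted p = 0.56) over 41 libraries each.

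**Figure D2:**
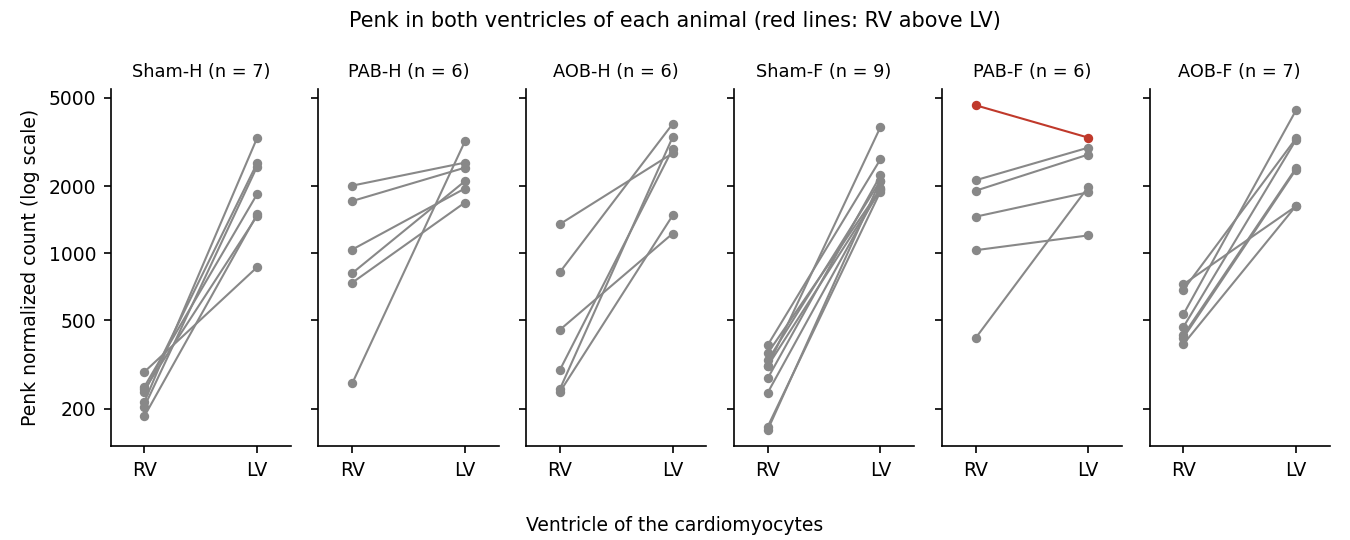
Penk normalized count (log axis) in the RV and LV of each animal, joined by a line, in the 6 conditions. The lines are steep in both sham groups, with median LV over RV ratios of 8.06 and 8.15, and nearly flat in most PAB-F animals (median 1.34), where 1 line (red) is higher in RV.

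The RV was also compared with sham in AOB animals, where the band loads the LV. Whether the RV of these animals was loaded as well was not tested. These contrasts were not among those that chose the gene. Their libraries did take part in the RV against LV differences that chose it, so the contrasts are not independent of the choice. The same holds for the LV and sham comparisons below. In RV AOB-H the lowest library had 239 normalized counts, the median 377 and the highest 1354. In RV AOB-F the values were 390, 466.1 and 725. All 7 RV AOB-F libraries lay above all 9 RV Sham-F libraries, the highest of which had 388. In RV AOB-H, 4 of 6 lay above the highest RV Sham-H library and 6 of 6 above its median. The log2 fold change was 1.29 ± 0.35 in RV AOB-H (95% interval 0.60 to 1.98, adjusted p = 1.0) and 0.88 ± 0.31 in RV AOB-F (interval 0.27 to 1.5, adjusted p = 0.69; edgeR), or 2.44-fold and 1.85-fold. Neither passed the adjustment over all genes. In RV AOB-H 0% of the genes tested did so (171 genes at an unadjusted p under 0.05, and 0 with DESeq2 after adjustment), and in RV AOB-F 0.0669%. Without RV AOB-H replicate 5 the first estimate was 0.82. In these comparisons 0 of 9 fibroblast, 0 of 7 endothelial and 0 of 8 macrophage markers passed by edgeR. With so few of all genes passing, these counts cannot show an unchanged cell content. Median log2 fold changes in RV AOB-H and RV AOB-F were 0.24 and 0.30 for fibroblast, 0.16 and 0.06 for endothelial and -0.00114 and 0.86 for macrophage markers. Summed macrophage markers ranged from 32.9 to 189 CPM (median 43.6) in RV AOB-F and from 20.3 to 64.2 (median 35) in RV Sham-F.

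In the LV, no change of Penk passed the test under any load. In LV AOB-H the lowest library had 1227, the median 2881 and the highest 3817. In LV AOB-F they were 1627, 2413 and 4389. Both groups overlapped their shams over most of the range, and 2 of 6 and 1 of 7 libraries exceeded the highest sham. The log2 fold change was 0.38 ± 0.33 in LV AOB-H (adjusted p = 0.532) and 0.25 ± 0.30 in LV AOB-F (adjusted p = 0.619; edgeR), with 95% intervals of -0.28 to 1.05 and -0.36 to 0.85. These intervals reach a 2.07-fold and a 1.80-fold higher level. Over all genes, 0.0167% passed in LV AOB-H and 12.9% in LV AOB-F.

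The LV of PAB animals was likewise close to sham. The lowest, median and highest libraries were 1691, 2268 and 3183 in LV PAB-H and 1204, 2382 and 3312 in LV PAB-F. The log2 fold changes were 0.22 ± 0.33 (adjusted p = 0.991, 95% interval -0.45 to 0.88) and 0.05 ± 0.32 (adjusted p = 0.9997, interval -0.58 to 0.68; edgeR). In both comparisons 0% of all genes tested passed, with 305 and 454 genes at an unadjusted p under 0.05 and 0 and 0 genes by DESeq2. The LV AOB response at failure minus that at hypertrophy was -0.14 ± 0.45 (adjusted p = 0.963, edgeR), a contrast in which 0% of genes passed, with 1148 at an unadjusted p under 0.05 and 29 by DESeq2 after adjustment.

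**Figure D3:**
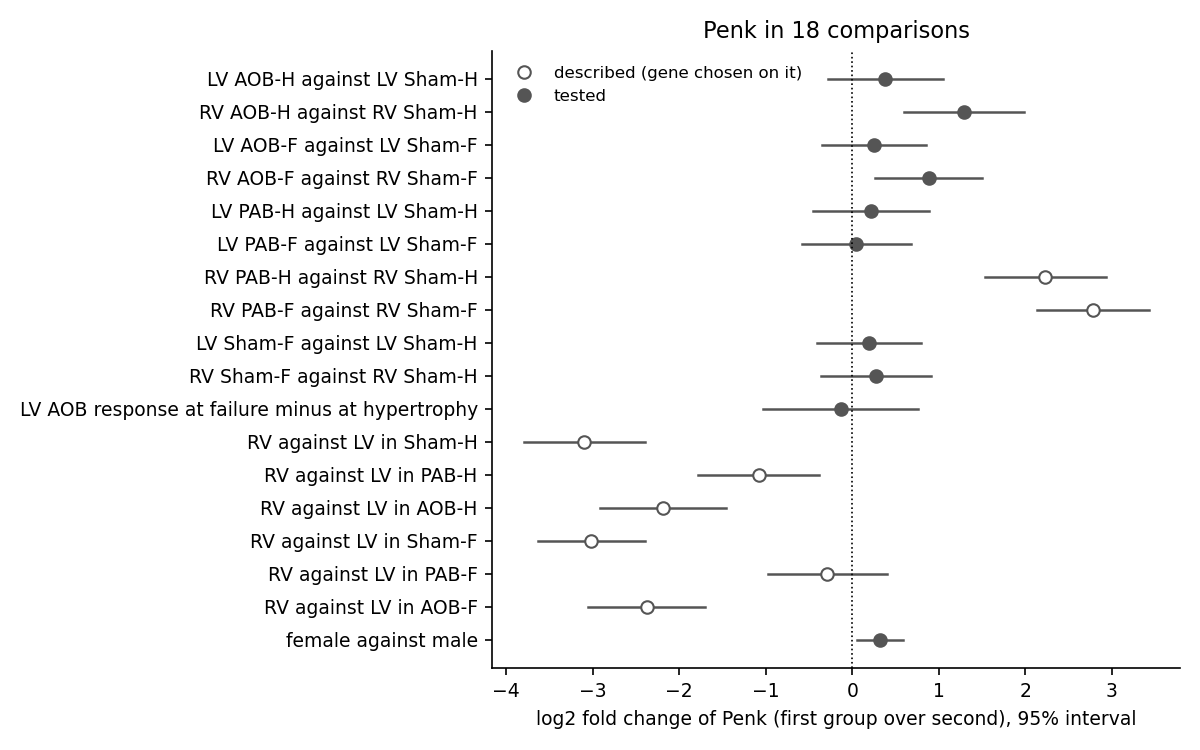
Log2 fold change of Penk with its 95% interval in 18 comparisons from the fit over 82 libraries; open points are described without a test, filled points were tested. RV PAB lies at 2.23 and 2.78, RV AOB at 1.29 and 0.88, and the LV load comparisons between 0.05 and 0.38 with intervals that include 0.

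Ordered by mean normalized count, the 12 groups ran from RV Sham-H (233 ± 35.4, SD) and RV Sham-F (282 ± 79.6) through RV AOB-F (521 ± 134), RV AOB-H (570 ± 443), RV PAB-H (1098 ± 654) and RV PAB-F (1930 ± 1459) to LV Sham-H (1997 ± 819), LV Sham-F (2283 ± 577), LV PAB-H (2320 ± 526.1), LV PAB-F (2358 ± 797), LV AOB-H (2602 ± 1031) and LV AOB-F (2708 ± 996). Of the 11 steps between neighbours, only that from RV Sham-F to RV AOB-F was larger than the larger of both log2 SDs (0.90 against 0.45) and had no overlap. From RV PAB-F upward, every neighbour overlapped the next.

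No difference of Penk between the sham stages, which differ in age and in time after surgery, passed the test. Between Sham-F and Sham-H the log2 fold change was 0.27 ± 0.32 in RV (adjusted p = 0.999, 95% interval -0.36 to 0.91) and 0.19 ± 0.30 in LV (adjusted p = 0.603, interval -0.41 to 0.80; edgeR). In the LV this stood within a broad difference between the stages, in which 57.4% of all genes passed, against 0.0502% in the RV. Females had a higher level than males by 0.32 ± 0.13 on the log2 scale (95% interval 0.05 to 0.59, adjusted p = 0.0901, edgeR with sex as a term), which did not pass the adjustment that 17.2% of all genes passed. The female mean was above the male mean in 8 of 12 groups. In RV PAB-H both females (1718 and 2015) lay above all 4 males (261 to 1040), and in RV PAB-F the females had 1461 and 4630 and the males 416 to 2130.

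Penk was then set beside 14 load-responsive genes, several of which the study had picked from these libraries, so that their PAB responses are not independent evidence of direction. They include Nppa and Nppb for the natriuretic peptides, Acta1 for skeletal alpha-actin, Myh7 for beta myosin heavy chain, Ankrd1 and Ankrd23 for titin-associated ankyrin repeat proteins, and Ctgf and Tgfb2 for matrix signals. In RV PAB-F 14 of 14 rose (beside 11.1% of all genes called, median log2 fold change 2.49, over all genes 0.02), with Nppb at 2.45 ± 0.23, Ankrd23 at 3.18 ± 0.38 and Tceal7 at 3.17 ± 0.44 (SE), against the 2.78 of Penk. In RV PAB-H 10 of 14 rose (71.4% beside 4.50% of all genes, median 1.90).

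In LV AOB-H 0 of 14 passed by edgeR, beside 0.0167% of all genes, and Penk did not pass there either. In LV AOB-F 8 of 14 rose and 0 fell (57.1% beside 12.9% of all genes, median 1.02, over all genes 0.04), among them Nppa at 1.95 ± 0.51, Ankrd23 at 1.82 ± 0.35, Tgfb2 at 2.04 ± 0.35 and Timp1, an inhibitor of matrix proteases, at 2.15 ± 0.44, where Penk had 0.25 ± 0.30. Nppb (0.48 ± 0.22, adjusted p = 0.128) and Acta1 (0.76 ± 0.35, adjusted p = 0.13) did not pass there either. Whether Penk differed from these genes in its LV response was not tested. In RV AOB-F, Nppa rose (2.82 ± 0.53, adjusted p = 0.00246) as the only 1 of the 14 (7.14% beside 0.0669% of all genes), while Ankrd23 had 1.56 ± 0.36 (adjusted p = 0.0546) and Nppb 0.89 ± 0.22 (adjusted p = 0.111; edgeR), a size like that of Penk.

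Some of these genes also differed between sham ventricles. In Sham-H 5 of 14 were lower in RV and 0 higher (35.7% beside 21% of all genes). The log2 difference of RV from LV was -2.55 for Nppa, -2.05 for Nppb, -1.31 for Acta1, -1.48 for Ankrd23 and -1.44 for Cilp, a matrix protein, beside -3.10 for Penk. In Sham-F 8 of 14 were lower in RV and Ankrd1 was higher (1.03 ± 0.20), which is 64.3% of the list beside 74.3% of all genes. Between the sexes, 9 of 14 were lower in females and 0 higher (64.3% beside 17.2% of all genes, median log2 -0.53).

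With group means removed, which takes out the differences that chose the gene, the relation to these genes was weak. Over 41 RV libraries, Pearson r with Penk was positive for 11 of 14 genes (range -0.30 to 0.46, median 0.27), and over 41 LV libraries for 9 of 14 (range -0.27 to 0.26, median 0.06). The highest value was that of Tceal7 in RV (r = 0.46, permutation p = 0.015, adjusted p = 0.415; rho = 0.37, p = 0.0325, adjusted p = 0.333). It was the only 1 of 28 relations with an unadjusted p of r under 0.05, and 0 of 28 passed the adjustment for r or rho. The 2 RV libraries whose Penk deviation from the group mean lay farthest from the median were RV PAB-F replicate 3 and RV PAB-H replicate 1. Without them, r fell to 0.22 for Tceal7, from 0.42 to 0.18 for Ctgf and from 0.39 to 0.10 for Acta1. Those libraries were picked by their Penk values, so leaving them out also narrows the spread of Penk. The fall of r alone therefore cannot tell how far the relations depend on them.

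The count depended on sex. When sex was removed together with the group means, 5 of 28 relations passed an adjusted p of 0.05 in the permutation test. They were Acta1 (r = 0.62, adjusted p = 0.016), Tceal7 (r = 0.61, adjusted p = 0.016), Nppb (r = 0.52, adjusted p = 0.0315) and Ankrd23 (r = 0.50, adjusted p = 0.0433) in RV and Acta1 in LV (r = 0.45, adjusted p = 0.0315). With the 2 libraries whose Penk deviation lay farthest from the median left out in the same way, these became 0.38, 0.42, 0.31 and 0.31 in RV and 0.50 in LV. Penk in the RV and in the LV of the same animal had r = 0.19 (permutation p = 0.268, adjusted p = 0.515) and rho = 0.24 (p = 0.161, adjusted p = 0.308) over 41 animals with group means removed, and r = 0.30 without the 2 farthest animals.

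**Figure D4:**
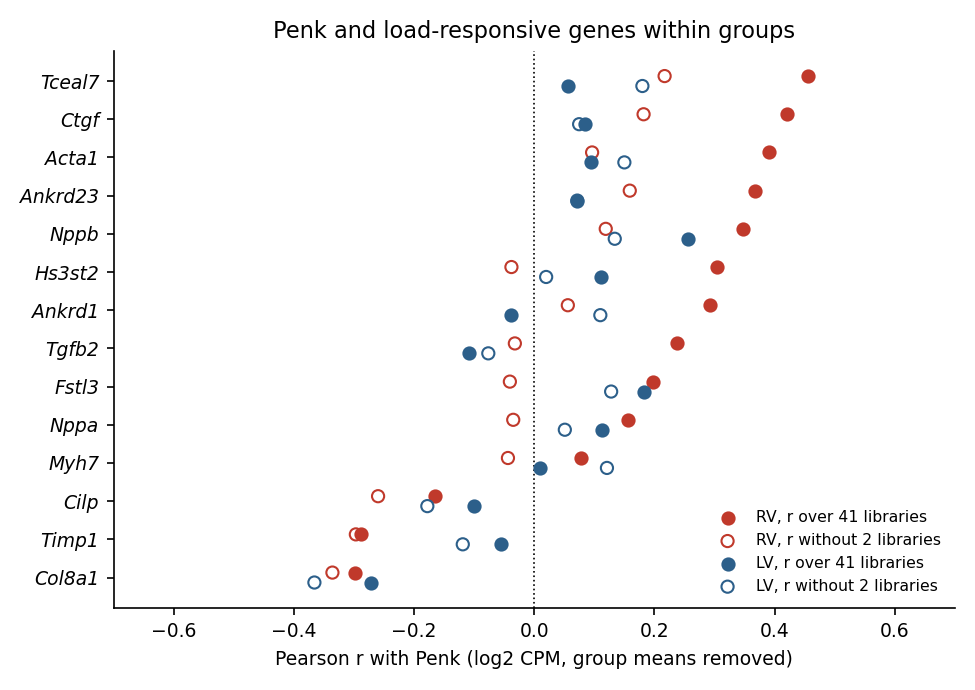
Pearson r between Penk and 14 load-responsive genes over 41 RV (red) and 41 LV (blue) libraries after removal of the group means. Open points leave out the 2 libraries whose Penk deviation from the group mean lay farthest from the median. Filled RV points reach 0.46 for Tceal7, and all open RV points lie at 0.22 or below.

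Among the 11953 other genes tested, those with a pattern most like that of Penk over the 82 libraries were Nppb (Pearson r = 0.87 in log2 CPM), Nat6 (0.83), Ankrd33b (0.82), Usp20 (0.82) and Dnajb5 (0.81). The libraries share groups, ventricles and animals, so these values carry no p-value and mainly follow the group levels. For Nppb, r was 0.78 over the 41 RV libraries and 0.29 over the 41 LV libraries. Nat6, now called Naa80, overlaps Hyal1 and Hyal3 in the RefSeq annotation of GRCr8, so that its count is less certain. With group means removed, the closest genes were others: Atg13 (0.61), Alpk3 (0.60), Reep5 (0.58), Rcan1 (0.55) and RGD1307554 (0.55). Of these, RGD1307554 overlaps Akt2 and LOC134483006, Rcan1 overlaps LOC134480974 and Reep5 overlaps Srp19-ps2, with the same uncertainty. Alpk3 encodes a kinase-like protein of the sarcomere and Rcan1 a regulator of calcineurin. For these, r was similar in both ventricles, as for Alpk3 with 0.66 in RV and 0.53 in LV.

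Penk was the opioid precursor with the highest level by a wide margin. Per length, Pomc, the precursor of beta-endorphin, averaged 1.62 FPKM over all libraries and Penk 78.8 FPKM. Pdyn and Pnoc, the precursors of dynorphins and nociceptin, had 0.866 and 0.561 raw counts per library on average and were at 0 in 54 and 60 of 82 libraries. The classical receptors were near the limit of detection at this depth. Oprd1, the delta receptor, had a mean of 1.45 raw counts and was at 0 in 41 libraries, and Oprm1, the mu receptor, had 0.415 and was at 0 in 60. Oprk1 and Oprl1 were at 0 in 75 and 78. Of other proteins that bind enkephalins, Ackr3, a scavenging chemokine receptor, averaged 42.8 FPKM and Ogfr, the nuclear opioid growth factor receptor, 17.4 FPKM.

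Among the processing enzymes, the convertases of dense-core granules, Pcsk1 and Pcsk2, had 3.05 and 0.5 raw counts per library on average. Of the granins and other granule cargo (Chga, Chgb, Scg2, Scg3, Vgf), 0 of 5 passed the filter on low counts. Of those of the constitutive route, Furin averaged 54.1 FPKM and Pcsk6 61.7 FPKM, but Pcsk5 only 1.5 FPKM. Cpe and Cpd, which trim basic residues from cut peptides, averaged 153 and 87.8 FPKM, and Ctsl, a protease that can cut proenkephalin, 153 FPKM. Pam, the amidating enzyme, was the highest of the list at 494 FPKM. Of the enzymes that degrade enkephalins, Ece1 averaged 51.3 FPKM and Npepps 44.2 FPKM, whereas Mme, neprilysin, averaged 0.311 FPKM. Gnai2, an inhibitory G protein subunit, and Kcnj3, a channel opened by such G proteins, averaged 97.5 and 51 FPKM.

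**Figure D5:**
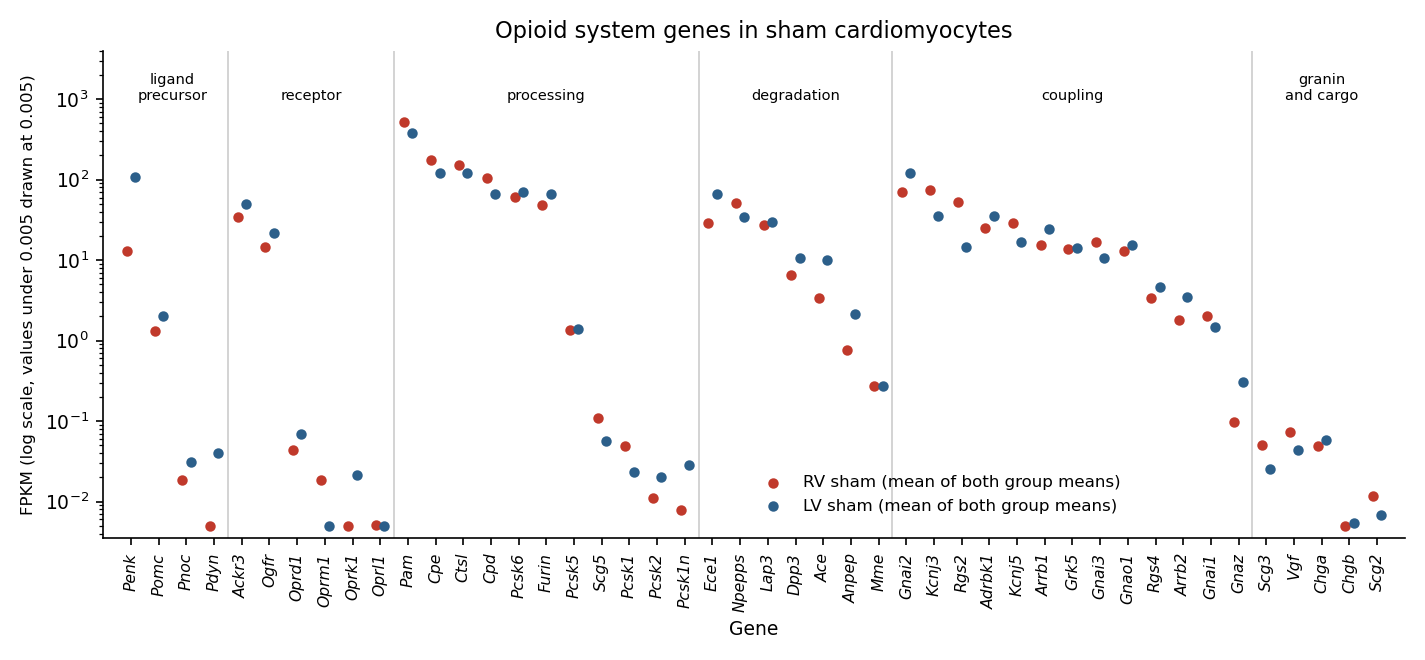
Level of Penk and other opioid system genes in sham cardiomyocytes (FPKM, log axis with values under 0.005 drawn at 0.005, mean of both sham group means) in RV (red) and LV (blue), ordered by role and level. Penk is the only precursor far above 1 FPKM, whereas Oprm1, Oprd1, Oprk1 and Oprl1 lie below 0.1 FPKM.

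Of the 46 opioid system genes other than Penk, 32 passed the filter on low counts (1 of 3 precursors, 3 of 7 receptors, 8 of 11 processing, 7 of 7 degrading and 13 of 13 coupling genes). The other 14 had mean raw counts between 0.061 and 2.26. In RV PAB-F 6 of the 32 rose and 1 fell, or 21.9% beside 11.1% of all genes (median log2 fold change 0.31, over all genes 0.02). Lap3, an aminopeptidase, rose by 0.38 ± 0.10, Ctsl by 0.51 ± 0.15, Pam by 0.45 ± 0.16, Dpp3, an enkephalin-degrading peptidase, by 0.39 ± 0.13, Gnao1 by 0.50 ± 0.13 and Arrb1, an arrestin that binds active receptors, by 0.50 ± 0.14, while Kcnj3 fell by 0.56 (SE 0.17). Without RV PAB-F replicate 1 only 1 of 32 was called. The share of all genes called was not taken for this or the other fits with a library left out. All of these changes were smaller than the 2.78 of Penk.

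In RV PAB-H 2 of the 32 rose, or 6.25% beside 4.50% of all genes: Ace, a peptidase that also cuts enkephalins, by 0.96 ± 0.28 and Rgs4, which shortens G protein signals, by 0.92 ± 0.27. That count went to 0 without RV Sham-H replicate 6 or 7 or RV PAB-H replicate 1 or 2, and to 1 without RV Sham-H replicate 1, 3 or 5. It was also 0 with the animal as a block and with sex as a term. In LV AOB-F, where Penk did not pass, 8 rose and 1 fell (28.1% beside 12.9%), among them Ctsl (0.64 ± 0.14), Npepps (0.55 ± 0.14), the receptor kinase Grk5 (0.89 ± 0.21) and Rgs2 (0.95 ± 0.25), while Pcsk6 fell by 0.39 (SE 0.13). The call of Pcsk1 in this comparison rested on few reads, since it was at 0 in 23 of 82 libraries. Without LV AOB-F replicate 7 the count was 5. In LV AOB-H 0 of 32 passed with edgeR, beside 0.0167% of all genes (4 at an unadjusted p under 0.05), and 1 with DESeq2. In RV AOB-H, RV AOB-F, LV PAB-H and LV PAB-F 0 of 32 passed with edgeR or DESeq2, and 0, 2, 2 and 1 had an unadjusted edgeR p under 0.05. Over all genes, 0%, 0.0669%, 0% and 0% passed there with edgeR, so these counts say nothing particular to the list.

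Between the ventricles of Sham-H, 9 of 32 were lower and 3 higher in RV (37.5% beside 21%), and the count was 4 without LV Sham-H replicate 4 and 5 without replicate 5. The lower genes included 5 of the degrading enzymes, with Ace at -1.14 ± 0.27, Anpep at -1.05 ± 0.37 and Ece1 at -0.68 ± 0.20. The higher genes were Rgs2 (1.2 ± 0.26) and the channel subunits Kcnj3 (0.78 ± 0.17) and Kcnj5 (0.60 ± 0.19). In Sham-F 16 were lower and 10 higher (81.2% beside 74.3%). Between Sham-F and Sham-H, 22 of 32 passed in LV (12 higher, 10 lower, 68.8% beside 57.4%). In RV 0 of 32 passed with edgeR, beside 0.0502% of all genes (1 at an unadjusted p under 0.05), and 0 with DESeq2. Between the sexes, Grk5 was higher in females (0.45 ± 0.08) and 5 of 32 were lower, among them Pomc (-0.37 ± 0.12), together 18.8% beside 17.2% of all genes.

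Lastly, 13 genes of the CREB, AP-1 and glucocorticoid receptor families, factors known to act on the Penk promoter, were all tested. In RV PAB-H and RV PAB-F 0 of 13 rose and 1 fell, Fos in both, by 0.57 (SE 0.17) and by 0.67 (SE 0.16) on the log2 scale. That is 7.69% of the list beside 4.50% and 11.1% of all genes. Between the Sham-H ventricles, Jund was lower in RV (-0.61 ± 0.18) and Atf2 higher (0.51 ± 0.15), or 15.4% of the list beside 21% of all genes. In Sham-F 5 were higher and 7 lower in RV (92.3% beside 74.3%), and between Sham-F and Sham-H 9 of 13 passed in LV (69.2% beside 57.4%). In LV AOB-F, Atf1 rose by 0.31 as the only 1 of the 13 (7.69% beside 12.9%).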

How the data were processed

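Ribosome-depleted RNA of isolated cardiomyocytes was sequenced in 41 RV and 41 LV libraries. The submitters' processing notes name Trim Galore, STAR, featureCounts and DESeq2 1.28.1, and the study's methods give the Rnor6.0 genome with UCSC annotation. The deposited raw counts per gene were tested as they stood. FPKM values were computed by the authors from their normalized counts and served to give levels per length; no test used them. The 82 deposited columns of normalized counts were not used. Gene coordinates and sequences, and 1 gene of the opioid list by name, are not reported here.

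Counts were fitted with edgeR 4.0.16 (quasi-likelihood, 1 mean for each of 12 groups, TMM, filterByExpr, 11954 genes tested, Benjamini-Hochberg over all of them, threshold 0.05, all tests two-sided). The standard error of a log2 fold change is its size over the root of the F statistic, and 95% intervals use the moderated degrees of freedom. Log2 CPM used a prior count of 2. Correlations used 100000 permutations within groups, with Benjamini-Hochberg adjustment over 28 relations to load-responsive genes and over 23 relations to marker lists and the other ventricle, the latter chosen after the data were seen. Alternatives were DESeq2 1.42.0, its size factors, no filter, sex as a term, fits to 2 groups, each library left out, and the animal as a block (limma 3.58.1). Animal identifiers in the labels tie the RV to the LV library; the median correlation of their deviations was 0.186 to 0.297 by condition, against -0.0686 to -0.0142 for other animals. The fits were tested on simulated data.

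Penk, the gene lists and the marker lists were chosen with earlier results of these data known. Named genes are Penk, the load-responsive list, the 5 genes most like Penk by each measure, and members of the opioid and promoter factor lists that were highest per length, at the limit of detection or past the threshold. The percent counting errors cover counting error only, whereas standard errors and 95% intervals include the spread between animals.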

Additional observations from a re-analysis of the deposited data

Results flagged for a closer look

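In LV Sham-F, replicate 8, a female, had 3691 normalized Penk counts, and the nearest of the other 8 libraries had 2645. The gap to that library took up a larger part of the group's range than Dixon's criterion allows. It was the only library past the criterion in the 12 groups examined, and chance alone flags about 1 in 20 groups. Without it the LV AOB-F difference from sham was 0.36 on the log2 scale in place of 0.25, and still did not pass the test.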

How the results depend on the processing

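The 10 tested comparisons of Penk kept their side of the threshold, and the 8 described ones their direction, under every alternative that was run for them. Direction changed in 2 tested comparisons near 0: LV PAB-F against sham was -0.0041 with the replicate block (animal as random block) and -0.075 to 0.18 with single libraries left out, and the AOB response of LV at failure minus at hypertrophy was -0.31 to 0.0056. With libraries left out in turn, RV PAB-H ranged from 1.97 to 2.44, RV PAB-F from 2.30 (without replicate 5) to 2.99 (without replicate 3), RV AOB-H from 0.82 to 1.45 and RV AOB-F from 0.78 to 0.94. The fit to 2 groups only gave RV AOB-F an adjusted p of 0.0799, and the range over its alternatives was 0.0799 to 1.0; for RV AOB-H it was 0.844 to 1.0. The paired fit with the animal as a fixed block gave an RV over LV difference of -0.57 in PAB-F, where the unpaired one gave -0.29, and no block changed a call of Penk.

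Counts of opioid system genes moved more. In RV PAB-H the 2 calls became 0 with sex as a term or with the replicate block, 1 with no filter, and 0 to 2 with libraries left out. In LV AOB-H the 0 calls became 1 with sex as a term, with DESeq2 and with the replicate block, and 0 to 1 with libraries left out. With libraries left out, the calls were 1 to 9 in RV PAB-F, 5 to 12 in LV AOB-F and 4 to 13 between the Sham-H ventricles. Apart from DESeq2, the share of all genes called was not taken for these alternatives. Whether the opioid list moved more than all genes was therefore not tested. Relations to load-responsive genes that passed went from 0 to 5 once sex was removed, and were 0 under every other alternative. The causes were not tested. Leaving out single libraries was not run for the comparison of sexes, nor the fit to 2 groups for the counts of opioid system genes. The classical opioid receptors and the granins had counts near the limit of detection at this depth, whereas Penk did not. Whether they were absent or only too low to be counted was not tested.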

Other observations

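Penk was also set against the mean level of 11 marker lists in each ventricle over 41 libraries with group means removed, a comparison chosen after the data were seen. None of the 22 relations, nor that between the ventricles of an animal, passed an adjusted p of 0.05 for r or rho in the permutation test. The value farthest from 0 was that of Schwann cell markers in LV, with r = -0.48 (permutation p = 0.00271, adjusted p = 0.0623), rho = -0.40 (p = 0.0109, adjusted p = 0.12) and r = -0.43 without the 2 libraries farthest from the median. In RV the same markers had r = -0.43 (permutation p = 0.0196, adjusted p = 0.151) and r = -0.26 without the 2 farthest libraries. Sex was not removed in any of the 22 relations. By edgeR, 4 of 5 Schwann cell markers were lower in females and 0 higher, beside 17.2% of all genes called. With ventricular cardiomyocyte markers, r was 0.31 in RV (permutation p = 0.196, adjusted p = 0.451) and 0.30 in LV (p = 0.118, adjusted p = 0.302).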
